A study of Mus musculus with 35 samples.

Results

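Livers of mice given silica particles of different size were compared at the pair of doses that the study took as toxic for their sizes, 40 mg/kg of SP70 and 200 mg/kg of SP300. The groups were taken from the arrays' titles, and the comparison holds 10 of the 35 arrays of the series, 5 for each dose, each from 1 mouse. All BALB/c mice were randomly assigned to groups, injected intravenously and killed 6 h later, and total RNA came from their livers' left lateral lobe. The 5 control mice received deionized water. The other groups of the series received SP70 at 10 or 20 mg/kg, SP30 at 10 mg/kg or SP300 at 10 mg/kg. They served here for levels and, with all other arrays, for the processing and the shared estimate of the spread. The study's design set these doses from tissue examination and serum biochemistry of earlier work, and its question was whether the response depends on particle size. Particle and dose differ together between the 2 groups, so an effect of size and an effect of dose cannot be told apart. No age or sex of the mice is given in the sources used here. Below, "SP70" and "SP300" without a dose mean these 2 groups.

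Particles that enter the blood are taken up in the liver mainly by Kupffer cells, the resident macrophages of the sinusoids, and also meet the thin fenestrated endothelium that lines these vessels. Damage or activation there sets off chemokines such as CXCL2, which draw in neutrophils, and NF-kB, the transcription factor released when its inhibitors are degraded. Hepatocytes answer cytokines of the IL-6 family with acute phase proteins through STAT3. When cells lack oxygen, prolyl hydroxylases no longer mark hypoxia-inducible factor (HIF) for degradation, and it switches on genes for glucose uptake, glycolysis and vessel growth by binding short sites with the core ACGTG or GCGTG.

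To show such cores, the 250 bases before the start of 3 genes that lead the comparison below are printed, 5′ to 3′ in the direction of the gene, from RefSeq (GRCm38.p6). Capitals mark ACGTG or GCGTG on either strand (CACGT and CACGC are the same letters read on the other strand, and a core may overlap another).
Pfkfb3 (chr2:11553930-11554179, minus strand): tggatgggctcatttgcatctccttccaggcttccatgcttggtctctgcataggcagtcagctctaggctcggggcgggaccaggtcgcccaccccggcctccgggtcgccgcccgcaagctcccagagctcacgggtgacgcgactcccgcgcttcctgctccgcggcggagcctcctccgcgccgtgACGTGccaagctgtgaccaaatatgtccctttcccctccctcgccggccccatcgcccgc
Adm (chr7:110627407-110627656, plus strand): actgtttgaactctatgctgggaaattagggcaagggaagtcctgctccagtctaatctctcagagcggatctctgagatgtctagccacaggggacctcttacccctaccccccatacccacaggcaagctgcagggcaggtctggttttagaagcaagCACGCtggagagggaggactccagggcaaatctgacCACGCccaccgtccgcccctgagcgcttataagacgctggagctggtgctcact
Ankrd37 (chr8:45999851-46000100, minus strand): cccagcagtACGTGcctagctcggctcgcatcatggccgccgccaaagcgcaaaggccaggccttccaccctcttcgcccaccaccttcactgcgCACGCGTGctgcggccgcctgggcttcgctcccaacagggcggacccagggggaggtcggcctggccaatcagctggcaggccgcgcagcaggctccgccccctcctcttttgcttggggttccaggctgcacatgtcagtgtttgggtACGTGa
The core nearest the start began 60 bases before it in Pfkfb3, 54 bases before it in Adm and 6 bases before it in Ankrd37. Of the 32 tested genes of a list of HIF targets and glycolytic enzymes, 30 had a window of this kind, and 24 windows (80%) held at least 1 core. The share was 54.9% of 10252 windows of all genes tested, so a core by itself is common. It was in 15 of the 20 windows of list members called higher after SP70 (75%) and in 9 of the 10 windows of the other members (90%). A match describes these letters only and is not a measured site.

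Signals are MAS5 values on a linear scale, and a difference is SP70 minus SP300 on the log2 scale with its standard error (SE) unless stated otherwise. A gene was called when its adjusted p from limma, Benjamini-Hochberg over 12678 genes, was under 0.05. A fold is the ratio of geometric means, and it is a lower bound, written "at least", when any signal in the lower group was under 165 (the middle of all values) or any in the higher group was above 48037, near the top of the scale. Array medians of the whole series ran from 149 to 180, and correlations between arrays were 0.941 to 0.955 within the 2 groups and 0.937 to 0.947 between them. The labelled tissue was checked by its markers: Alb, Apoa1 and Ttr, secreted by hepatocytes, were between 60791 and 112862 on all arrays of the 3 groups, whereas Cd79a and Cd3e of B and T cells reached at most 82.6 and 272. The actin 3′ to 5′ ratio of the control probe sets, a sign of RNA quality, was 1.97 to 2.19 after SP70, 1.66 to 1.98 after SP300 and 2.23 to 2.49 in controls. The same ratio of Gapdh overlapped between the groups, at 0.776 to 0.798, 0.723 to 0.817 and 0.762 to 0.820. The part of RNA quality in the results was not tested.

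A mouse in each group stood apart in genes of the vessel wall. SP70 replicate 3 had the lowest signal of its group in 21 of 31 tested markers of sinusoidal endothelium, and SP300 replicate 1 in 22 of 31. The summed endothelial signal was 32977 in SP70 replicate 3 against 40977 to 48213 in the other SP70 mice, and 41995 in SP300 replicate 1 against 55812 to 60146 in the other SP300 mice. Results are therefore also given without both mice where this changes a call or moves a count by more than 1.5 times.

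Many genes of the hypoxia and immediate early responses were higher after SP70, and many endothelial genes were lower after SP70. Of 12678 genes, 1954 were called (15.4%), 636 higher after SP70 (5.02%) and 1318 lower (10.4%). Counts of list members below stand beside these shares. Among genes that differed at least 2-fold, the balance was the other way, with 217 higher and 92 lower. The signals of the 5 and 5 mice did not overlap for 391 of the genes called higher (3.08%) and for 751 of those called lower (5.92%). Over all genes, called or not, 458 (3.61%) had every SP70 mouse above every SP300 mouse and 938 (7.40%) the reverse. The count of calls fell to 1282 (509 higher and 773 lower) without SP70 replicate 3 and SP300 replicate 1. For 10087 genes (79.6%) the 95% interval of the difference lay within -1 and 1, so that a change above 2-fold lay outside it.

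**Figure D1:**
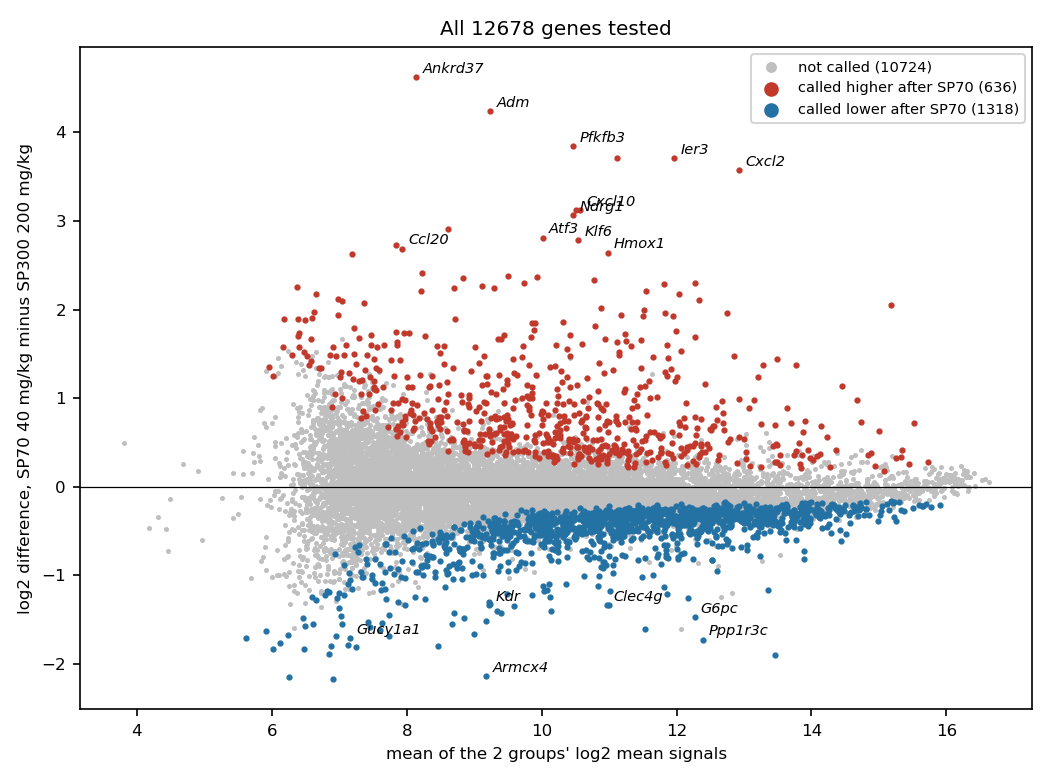
Log2 difference between SP70 40 mg/kg and SP300 200 mg/kg (vertical) against the mean of the groups' log2 mean signals (horizontal) for all 12678 genes tested. Red points are the 636 genes called higher after SP70, blue points the 1318 called lower and grey points the 10724 not called. The largest differences lie above 0 and reach 4.62 for Ankrd37, while the many lower calls are mostly small.

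Against the same 5 control mice, 1968 genes rose (15.5%) and 3646 fell (28.8%) after SP70, and 1595 rose (12.6%) and 2284 fell (18.0%) after SP300. With arrays centred on their medians, the split after SP300 became 1953 higher and 1810 lower. These comparisons share the control mice, so values against control are given side by side and their likeness is not taken as a result.

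Hypoxia genes were higher after SP70 as a group. Of 32 tested members of the list of HIF targets and glycolytic enzymes, 22 were called higher after SP70 and 0 lower, beside 5.02% and 10.4% of all genes, with a median difference of 0.96 beside -0.06 over all genes. Against control, 23 members rose and 2 fell after SP70 (median 1.09), whereas 6 rose and 8 fell after SP300 (median -0.02). Leaving out both mice that stood apart left the count at 22. A list of this kind cannot tell more RNA per cell from more cells of a type, here or in any group below, because the whole tissue was measured.

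Adm encodes adrenomedullin, a peptide that widens vessels and is a classic HIF target. Its signals were 1518, 1765, 2504, 2732 and 5299.9 in the SP70 mice and 63, 90.2, 113, 168 and 226 in the SP300 mice, beside 56.3 to 259.6 in controls. All SP70 mice lay above all SP300 and control mice, while SP300 and control mice overlapped. Adm was at least 14.2-fold higher after SP70 than after SP300 (difference 4.24 ± 0.41, limma adjusted p = 5.4e-09).

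Ankrd37, an ankyrin repeat protein gene induced by HIF, read 732, 1045, 1388, 1422 and 2737 after SP70. After SP300 it read 8.26, 28.9, 31.6, 85.2 and 118, all below the 165 floor, and in controls 101 to 225. The SP70 mice again stood clear of the others, at least 8.05-fold above SP300 (difference 4.62 ± 0.53, limma adjusted p = 1.3e-07). Against control the difference was 3.18 after SP70 and -1.44 after SP300, but controls and SP300 mice lay near or under the floor, where size is uncertain.

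Pfkfb3 makes the enzyme whose product, fructose 2,6-bisphosphate, speeds up glycolysis. Its signals were 3703, 4673, 4961, 5639 and 8115 after SP70 and 249, 300.2, 303, 426 and 570.4 after SP300, and 731 to 2075 in controls. Here the 3 groups formed 3 separate ranges, with controls in the middle. The difference of 3.84 ± 0.33 (limma adjusted p = 1.2e-09), or 14.8-fold, was made of a rise of 2.21 against control after SP70 and a change of -1.63 after SP300. The other of its 2 probe sets gave a smaller difference of 1.64, and the lowest value over the alternative settings was 2.74.

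Ndrg1, a stress gene induced by low oxygen, was 8.58-fold higher, at 2498, 4076, 4084, 4874 and 5428 after SP70 and 388, 400.2, 529, 530.3 and 543 after SP300 (difference 3.07 ± 0.27, limma adjusted p = 1.2e-09). Vegfa, the growth factor that endothelium needs, read 5706, 6219.7, 7829, 8044 and 8832 after SP70 and 2069, 2402, 2526, 2560.5 and 3019.8 after SP300. Controls lay between at 2999.9 to 4357, overlapping the SP300 range at its upper end and not the SP70 range. Vegfa was 2.9-fold higher after SP70 than after SP300 (difference 1.53 ± 0.16, limma adjusted p = 4.8e-08).

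The glucose transporters Slc2a3 and Slc2a1 differed by 1.59 ± 0.27 and 1.25 ± 0.17, and hexokinase 2 (Hk2), which traps glucose in the cell, by 1.51 ± 0.20. Among enzymes of glycolysis itself, Aldoa (aldolase) differed by 1.23 ± 0.12, Pfkl (the liver phosphofructokinase) by 0.97 ± 0.13 and Pkm (pyruvate kinase) by 0.90 ± 0.20, all without overlap of the groups. Ldha, lactate dehydrogenase, was called with a small difference of 0.28 ± 0.08 at signals among the brightest. It lost its call without SP300 replicate 1 (limma adjusted p = 0.065). Pgk1, another enzyme of glycolysis that HIF drives in many cells, was not called (-0.04 ± 0.08), and neither was Pdk1 (-0.13 ± 0.11), which fell against control in both groups (-0.79 and -0.67). The probe sets of Pgk1 and of Pdk1 disagreed in sign, and with the mean of all its probe sets the difference of Pgk1 was 0.29 (limma adjusted p = 0.028).

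Genes that feed back on HIF or act beside it were higher after SP70 too. Egln3, a prolyl hydroxylase that marks HIF for degradation, differed by 1.28 ± 0.18, and the histone demethylase Kdm3a by 1.66 ± 0.15. Ero1a, which oxidises proteins in the endoplasmic reticulum, differed by 1.96 ± 0.18 and rose against control in both groups, by 2.47 after SP70 and 0.50 after SP300. Ddit4, a brake on mTOR signalling, differed by 1.47 ± 0.29. Outside the list, Hilpda, a lipid droplet protein induced by HIF, differed by 1.46 ± 0.23 and the HIF antagonist Cited2 by 1.59 ± 0.18. Car9, a carbonic anhydrase often used as a hypoxia marker, lay around the floor in all 3 groups and gave no fold.

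**Figure D2:**
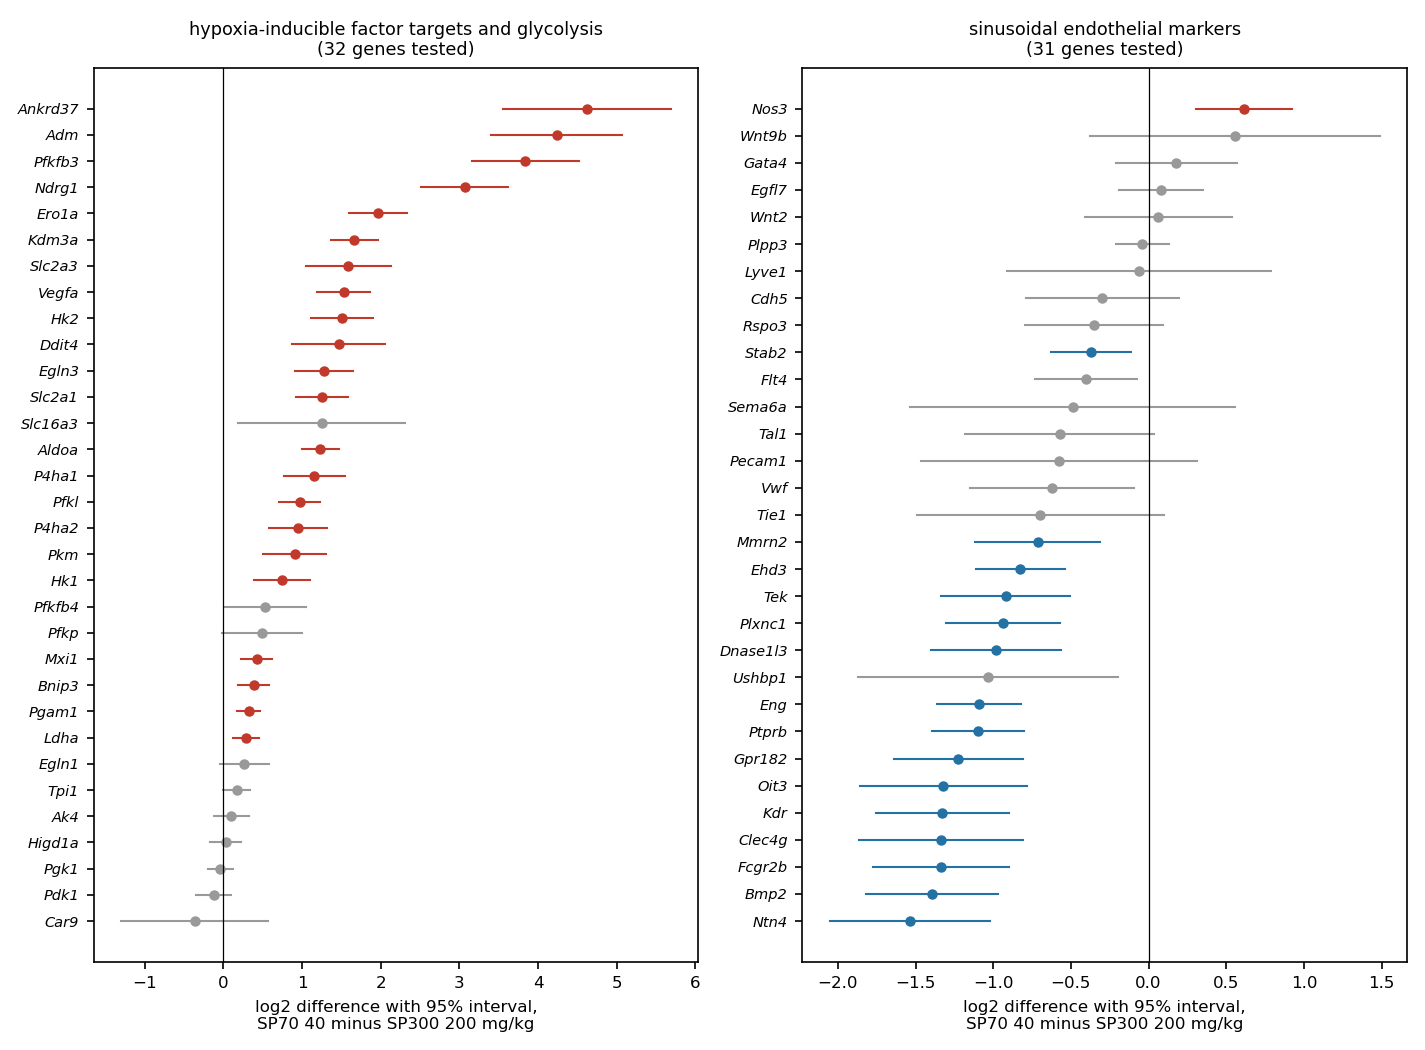
Log2 difference, SP70 40 mg/kg minus SP300 200 mg/kg, with its 95% interval for the 32 tested HIF targets and glycolytic enzymes (left) and the 31 tested sinusoidal endothelial markers (right). Red marks genes called higher after SP70, blue genes called lower and grey genes not called. Of the hypoxia genes 22 are red and none is blue, and of the endothelial genes 15 are blue and 1 is red.

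Immediate early genes, which cells switch on within minutes to hours of a stimulus without new protein, were also higher after SP70. Of 15 tested AP-1 transcription factors 7 were called higher and 0 lower, and of 33 other immediate early genes 21 were called higher and 1 lower. In the other list 2 were called lower without SP70 replicate 2 or SP300 replicate 3 and with 4 changes of processing, and in the AP-1 list 1 with arrays centred on their medians. The medians were 0.76 and 0.83. Against control the AP-1 list had a median of 1.37 after SP70 and 0.61 after SP300, and the other list 1.10 and 0.25.

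Ier3, a regulator of cell death, had one of the widest gaps. Its signals were 9024, 11887, 15067, 15745 and 17779 after SP70 and 564, 615, 1209, 1332 and 1990.0 after SP300, and 16.2 to 212 in controls. Both treated ranges lay above that of controls and did not meet, and the SP70 range was 13.2-fold above that of SP300 (difference 3.71 ± 0.39, limma adjusted p = 2.5e-08). Atf3, a stress-induced partner of JUN, read 1713, 1743, 2389, 3865 and 4637 after SP70 and 283, 315, 344, 459.6 and 461 after SP300 (difference 2.81 ± 0.40, limma adjusted p = 8.6e-06). Its SP300 range overlapped that of controls (67.6 to 339.6), and its SP70 range did not.

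The AP-1 subunits Jun (2.29 ± 0.27), Junb (1.82 ± 0.22), Fos (1.59 ± 0.39) and Maff (1.72 ± 0.40) were higher after SP70 without overlap. So were Klf6 (2.78 ± 0.25), a zinc finger factor of the injured liver, the small GTPase Rhob (2.17 ± 0.21), the growth brake Btg2 (2.11 ± 0.20) and the ERK phosphatase Dusp6 (1.92 ± 0.29). Egr1, an early growth response transcription factor, rose against control in both groups (3.20 and 2.19) and differed by 1.01 ± 0.27 between them. Dusp1 (0.39 ± 0.28) and Ier2 (0.35 ± 0.18) were not called. The member called lower was Tsc22d3, a glucocorticoid-induced anti-inflammatory gene, which fell in both groups (-2.62 against control after SP70 and -1.62 after SP300).

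Myc, the growth regulator, differed by 2.26 ± 0.37, with -0.52 against control after SP70, not called, and -2.78 after SP300. Its signals were 913, 951, 1013, 1244 and 2183 after SP70, 191, 195, 244, 250.4 and 337 after SP300 and 725 to 5303 in controls. The wide control range took in that of SP70, and all controls lay above all SP300 mice. The adjusted p from limma was 6.1e-05 between the groups.

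Gadd45b and Gadd45g, growth arrest genes induced by DNA damage and other stress, were higher after SP70. Of 18 tested GADD45 and p53 target genes, 7 were called higher and 2 lower (median 0.18; 1 lower without both mice that stood apart). Gadd45b differed by 2.00 ± 0.31 (1.30 with the mean of its probe sets), Gadd45g by 1.93 ± 0.36 and the polo-like kinase Plk3 by 1.93 ± 0.28. Hmox1, heme oxygenase, which breaks down heme and is induced by oxidants, read 3092, 4231, 4781, 5778 and 7608 after SP70 and 451, 766, 806, 976 and 992 after SP300. The groups did not meet, and SP70 was 6.33-fold higher (difference 2.64 ± 0.32, limma adjusted p = 4.4e-07). Of 26 tested targets of NRF2, the antioxidant regulator, 2 were called higher, Hmox1 among them, and 4 lower. The shares of all genes were 5.02% and 10.4%, and the median of the list was 0.04. The lower calls were 2 without SP70 replicate 5 or SP300 replicate 3 and 1 without SP300 replicate 1 or without both mice that stood apart. The higher calls were 4 without SP70 replicate 3 or after quantile normalization.

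**Figure D3:**
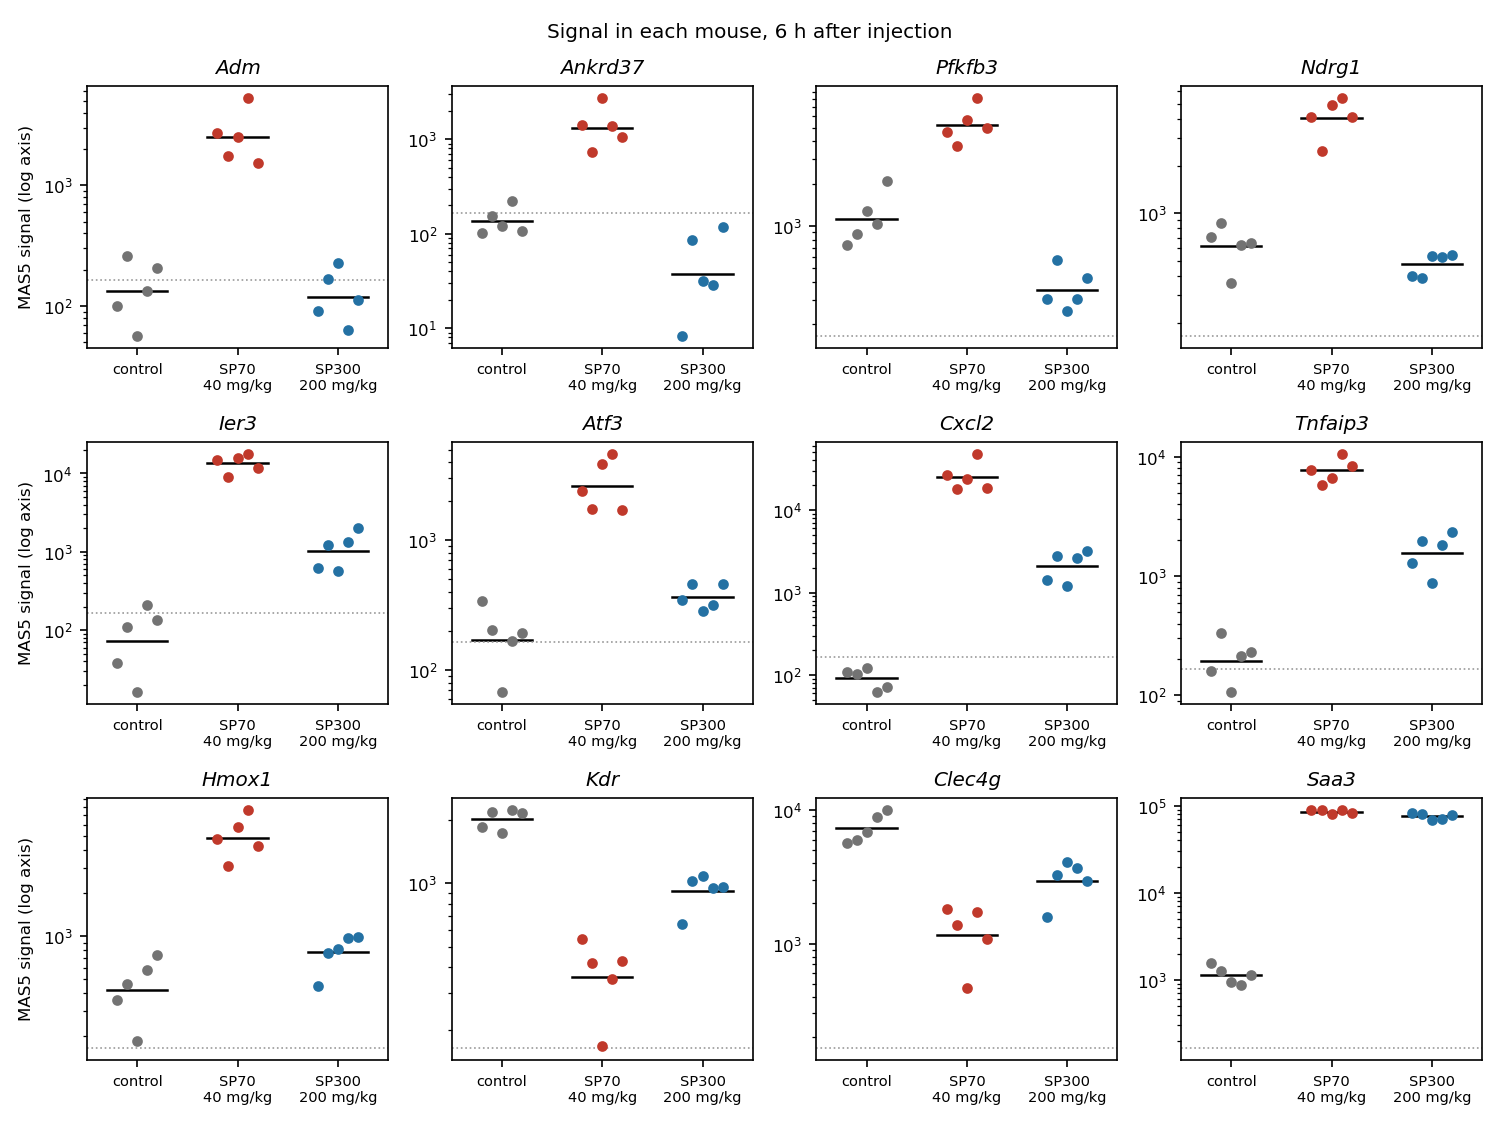
MAS5 signal (log axis) of 12 genes in each of 5 control mice (grey), 5 mice given SP70 40 mg/kg (red) and 5 given SP300 200 mg/kg (blue). Bars are geometric means and the dotted line is the 165 floor, drawn where it lies within the panel. The red and blue points do not overlap for Adm, Ankrd37, Pfkfb3, Ndrg1, Ier3, Atf3, Cxcl2, Tnfaip3, Hmox1 and Kdr, and they do overlap for Clec4g and Saa3.

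Genes of NF-kB signalling rose against control in both groups and further after SP70. Of 22 tested subunits, inhibitors and response genes, 17 were called higher after SP70 than after SP300 and 0 lower (median 0.91). Against control 21 rose after SP70 (median 1.93) and 19 after SP300 (median 0.75), and none fell in either.

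For letters of the kind NF-kB binds, 3 G, any 5 letters and 2 C on either strand, the 250 bases before the start of an inhibitor and of a chemokine that lead these groups are shown (RefSeq, GRCm38.p6, 5′ to 3′ in the direction of the gene). Capitals mark the matches, which may overlap.
Tnfaip3 (chr10:19015411-19015660, minus strand): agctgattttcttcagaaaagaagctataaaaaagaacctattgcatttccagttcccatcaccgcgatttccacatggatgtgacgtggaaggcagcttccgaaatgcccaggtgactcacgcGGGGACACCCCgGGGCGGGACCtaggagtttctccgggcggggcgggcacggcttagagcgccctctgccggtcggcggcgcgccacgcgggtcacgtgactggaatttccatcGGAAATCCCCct
Cxcl2 (chr5:90903649-90903898, plus strand): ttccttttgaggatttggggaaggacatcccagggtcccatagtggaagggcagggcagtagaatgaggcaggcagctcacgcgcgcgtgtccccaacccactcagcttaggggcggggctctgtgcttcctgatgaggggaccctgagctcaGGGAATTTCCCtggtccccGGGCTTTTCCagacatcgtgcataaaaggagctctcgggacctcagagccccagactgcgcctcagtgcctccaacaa
There were 6 matches at 3 places in Tnfaip3 and 3 matches at 2 places in Cxcl2. Of the 22 tested NF-kB list members 19 had a window, and 16 of these (84.2%) held the letters, beside 60.5% of 10252 windows of all genes tested. The share was 13 of 14 windows (92.9%) for members called higher after SP70 and 3 of 5 (60%) for the others. With only 5 windows among the others, these shares are not a comparison. A match again describes letters only and is not a measured site.

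Tnfaip3 encodes A20, which switches NF-kB off again. It read 5811, 6649, 7798, 8423 and 10594 after SP70, 869, 1278, 1813, 1985 and 2326 after SP300 and 106 to 332 in controls. The 3 ranges were apart, and SP70 was 4.92-fold above SP300 (difference 2.29 ± 0.29, limma adjusted p = 8.5e-07). Icam1, the adhesion molecule that holds leukocytes on the vessel wall, read 10178, 11716, 12357, 13949 and 18319 after SP70 and 2049.8, 2160.4, 4052, 4213 and 5439 after SP300, again apart from each other and from controls (604 to 879.7). Its difference was 1.96 ± 0.20 (limma adjusted p = 1e-08).

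The receptor Tlr2 differed by 1.64 ± 0.20, the subunits Relb and Rela by 1.39 ± 0.24 and 0.68 ± 0.09, the co-regulator Bcl3 by 1.33 ± 0.24, the survival gene Birc3 by 1.30 ± 0.21 and the inhibitor Nfkbia by 0.73 ± 0.12. Not every strongly induced member differed. The kinase gene Ikbke rose against control by 4.12 after SP70 and 4.00 after SP300, and the difference between the groups was 0.12 ± 0.18 (95% interval -0.25 to 0.49). Sod2, a mitochondrial antioxidant enzyme, and Cflar, an inhibitor of caspase 8, gave 0.12 ± 0.07 and -0.01 ± 0.10.

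Chemokines were split between members that differed and members that did not. Of 10 tested CXC chemokines 6 were called higher after SP70 and 1 lower, and of 13 tested CC chemokines 3 were called higher and 0 lower (medians 0.71 and 0.25). The CC count was 5 without SP70 replicate 3. Cxcl2, which draws neutrophils, read 17827, 18739, 23723, 26497 and 48001 after SP70, 1192, 1414, 2658, 2805 and 3222 after SP300 and 62 to 121 in controls. All 3 ranges were apart, and SP70 was 12-fold above SP300 (difference 3.58 ± 0.36, limma adjusted p = 1.5e-08).

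Ccl2, which draws monocytes, read 2841, 5798, 6047, 8423 and 8592 after SP70 and 683, 725, 1678, 1884 and 2069 after SP300, beside 6.56 to 119 in controls (difference 2.21 ± 0.34, limma adjusted p = 2.9e-05). Ccl7, of the same cluster of monocyte chemokines, differed by 1.89 ± 0.31 and Ccl20, which acts through CCR6, by 2.69 ± 0.45. By contrast the macrophage chemokines Ccl3, Ccl4 and Ccl9 rose against control in both groups and gave -0.11 ± 0.25, -0.01 ± 0.17 and 0.01 ± 0.11 between them, with intervals of -0.62 to 0.41, -0.35 to 0.34 and -0.20 to 0.23. The 2 probe sets of Ccl9 differed in sign, both near 0. Cxcl1 was above 48037 in all SP70 mice (50842 to 67505, beside 22269 to 47708 after SP300), and its call was fragile. It was lost in 13 of 21 alternative settings. Among them were leaving out any of the 5 SP70 mice in turn (limma adjusted p = 0.051 to 0.095) or SP300 replicate 1, 3 or 5 (limma adjusted p = 0.054 to 0.16). Leaving out both mice that stood apart also lost it (limma adjusted p = 0.16). Pf4 (0.69 ± 0.15) and Ppbp (1.39 ± 0.21), also called higher, are chemokines stored in platelets. The member called lower was Cxcl12 (-0.57 ± 0.12), a chemokine made by stromal and endothelial cells.

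Cytokines and the IL-6 pathway were higher after SP70 in part. Of 25 tested cytokines and receptors 9 were called higher and 0 lower, and of 22 tested genes of IL-6 family signalling 14 were called higher and 0 lower (medians 0.47 and 0.89). Of the cytokine list 1 was called lower without SP70 replicate 1 or with arrays centred on their medians. Il1b, the pyrogenic cytokine, differed by 1.02 ± 0.18 and its natural antagonist Il1rn by 1.65 ± 0.33. Csf3, which mobilises neutrophils, read 165, 172, 219.9, 260.0 and 294 after SP70 and 23, 23.5, 27.5, 38.1 and 118 after SP300, where every SP300 mouse was below the floor. Tnf was not called (0.85 ± 0.35, limma adjusted p = 0.093).

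Socs3, the feedback inhibitor of STAT3, rose against control in both groups (3.83 and 2.46) and differed by 1.37 ± 0.31. Cebpd, a transcription factor of the acute phase, differed by 1.60 ± 0.22. Socs2 and Cish, feedback inhibitors that growth hormone induces through STAT5, were called lower than control after SP300 and were not called after SP70. Socs2 read 2228, 3846, 4116, 4277 and 4713 after SP70, 399, 562, 619, 1014 and 1417 after SP300 and 3566 to 9847 in controls. The SP70 and control ranges overlapped, and the SP300 mice lay below both (difference 2.34 ± 0.46, limma adjusted p = 0.00052; 1.55 with the mean of its probe sets). Cish gave 1.63 ± 0.26 between the groups, 0.19 against control after SP70 and -1.44 after SP300. Igf1, the main growth hormone target of the liver, gave 0.02 ± 0.05 between the groups (95% interval -0.08 to 0.13).

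Genes of neutrophils were higher after SP70, but unevenly. Of 21 tested markers and granule genes 11 were called higher and 1 lower (median 0.98), and against control 17 rose after SP70 and 12 after SP300. The summed signal of the list was 111223 to 157317 after SP70, 111145 to 121735 after SP300 and 11392 to 21490 in controls, so that both treated groups were far above control and overlapped with each other. Lcn2, which hepatocytes also make, is the most abundant of them and weighs on that sum, at 67867 to 81275 after SP70 and 69601 to 78281 after SP300.

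S100a8, a calcium-binding protein of neutrophils and monocytes, read 14054, 20346, 20462, 26568 and 31473 after SP70 and 5357, 6998, 8673, 10092 and 12483 after SP300 (difference 1.38 ± 0.23, limma adjusted p = 8.7e-05), without overlap. Its partner S100a9 gave 1.44 ± 0.25, with groups that overlapped. Cxcr2, the receptor of CXCL2 on neutrophils, read 515, 527, 562, 573 and 857 after SP70 and 33.5, 78.7, 158, 209.7 and 239.6 after SP300, at least 3.19-fold higher (difference 2.20 ± 0.41, limma adjusted p = 0.00027). The granule genes Mmp8 (1.48 ± 0.36) and Ngp (1.21 ± 0.25) were also higher, whereas Csf3r, the receptor of CSF3, was not called (0.48 ± 0.41). The member called lower was G0s2 (-1.89 ± 0.49), an inhibitor of lipolysis that hepatocytes and fat cells express as well.

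Of 11 tested markers of recruited monocytes 5 were called higher and 0 lower (median 0.56). Itgam, the CD11b chain, gave 1.38 ± 0.37, Vcan 1.14 ± 0.28 and F13a1 0.58 ± 0.16, while Ccr2, the receptor of CCL2, gave 0.18 ± 0.20 and Chil3 -0.15 ± 0.42, neither called. Of leukocyte adhesion molecules 7 of 12 were called higher and 0 lower. Sele (E-selectin), made by activated endothelium, read 499.5, 670.4, 808, 1306 and 1365 after SP70 and 85.4, 147, 167, 248 and 287 after SP300, and differed by 2.24 ± 0.39 (limma adjusted p = 0.00014). Selp and Vcam1 differed by 0.90 ± 0.23 and 0.85 ± 0.22, with overlapping groups.

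Interferon genes were higher after SP70 in part. Of 16 tested genes of the interferon gamma response 6 were called higher and 0 lower, and of 28 type I interferon response genes 6 and 0 (medians 0.46 and 0.23). The type I list also had 2 lower calls with arrays centred on their medians and 1 without SP70 replicate 1 or SP300 replicate 1. The first count was 4 without SP70 replicate 1 and 9 without SP300 replicate 5, and the other count was 3 or 4 without SP70 replicate 4 or 5 or SP300 replicate 2 or 4. Cxcl10, which draws T cells, read 2238, 2755, 4054, 4899.6 and 9331 after SP70 and 262, 313, 579, 600.1 and 706 after SP300, beside 227 to 339 in controls (difference 3.12 ± 0.37, limma adjusted p = 2.2e-07). Its relative Cxcl9 rose against control in both groups (4.59 and 4.78) and gave -0.19 ± 0.22 between them (95% interval -0.63 to 0.25). The transcription factor Irf1 differed by 1.45 ± 0.22 and the antiviral genes Rsad2 and Ifit1 by 1.52 ± 0.23 and 1.37 ± 0.21. The guanylate-binding proteins Gbp2 and Gbp6 were not called (0.53 ± 0.22 and 0.28 ± 0.20). For Gbp2 a call appeared under quantile normalization and without SP300 replicate 5 (limma adjusted p = 0.041 and 0.022).

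Many genes of the sinusoidal endothelium were lower after SP70. Of 31 tested markers 15 were called lower and 1 higher, beside 10.4% and 5.02% of all genes, with a median of -0.70. Against control 20 fell after SP70 (median -1.23) and 15 after SP300 (median -0.46). Without SP70 replicate 3 and SP300 replicate 1, 15 were called lower and 0 higher, with a median of -0.54.

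Kdr, the receptor through which VEGF keeps endothelium alive, read 169, 351, 418, 429 and 546 after SP70, 644, 952, 957, 1031 and 1084 after SP300 and 1738 to 2234 in controls. The 3 ranges did not meet, with SP70 lowest. Kdr was 2.57-fold lower after SP70 (difference -1.33 ± 0.21, limma adjusted p = 3.7e-05), and the difference was -1.20 without both mice that stood apart. Clec4g, a lectin of these cells, read 467, 1077, 1373, 1727 and 1808 after SP70 and 1590.1, 2935, 3283, 3694 and 4059.9 after SP300. Only the lowest SP300 mouse, replicate 1, fell inside the SP70 range, and the difference was -1.34 ± 0.26 with all mice and -1.24 without both (limma adjusted p = 0.00046 and 9.4e-05).

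Bmp2, the endothelial signal that tells hepatocytes to make hepcidin, differed by -1.40 ± 0.21, the inhibitory Fc receptor Fcgr2b by -1.34 ± 0.21, the TGF-beta co-receptor Eng by -1.09 ± 0.13, the phosphatase Ptprb by -1.10 ± 0.15 and Ntn4, a netrin of vessel walls, by -1.54 ± 0.25. Stab2, a scavenger receptor of these cells, passed only narrowly (-0.37 ± 0.13, limma adjusted p = 0.044) and lost its call in 10 of 21 alternative settings, among them without SP70 replicate 1, 3 or 5 or SP300 replicate 2, 3 or 4 (limma adjusted p = 0.059 to 0.17). Outside the list, the related scavenger receptor Stab1 differed by -0.95 ± 0.14. Erg, a transcription factor of endothelial identity, read 65.1, 98.9, 106, 127 and 135 after SP70, all under the floor, and 199, 345, 347, 382 and 514 after SP300.

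Cdh5 and Pecam1, markers of endothelium in general, were not called, unlike Kdr, Eng, Ptprb and Erg. Cdh5 (VE-cadherin) gave -0.30 ± 0.24 between the groups, with 0.53 against control after SP70, not called, and 0.83 after SP300, and Pecam1 gave -0.58 ± 0.44. Lyve1, the hyaluronan receptor of sinusoids, rose against control in both groups (1.61 and 1.67) and did not differ detectably between them (-0.06 ± 0.42, 95% interval -0.91 to 0.79). It read 814, 3413, 3915, 4459 and 4479 after SP70 and 749, 3724, 4201, 4213 and 5439.8 after SP300, the lowest value of each group being that of the mouse that stood apart. Nos3, the endothelial nitric oxide synthase, was the 1 marker called higher (0.61 ± 0.15), a call lost without both those mice (limma adjusted p = 0.056).

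Of 31 tested coagulation and fibrinolysis genes 3 were called higher after SP70 and 5 lower (median -0.04), beside 5.02% and 10.4% of all genes. The members called higher were Procr, the receptor of activated protein C (2.38 ± 0.27), thrombomodulin (Thbd), its partner in holding back clotting (1.16 ± 0.21), and Plaur, the urokinase receptor (0.81 ± 0.14). Of 20 markers of stellate cells, which store vitamin A beside the sinusoid, 5 were called lower and 0 higher (median -0.28), and the count of lower calls was 1 without both mice that stood apart 3 without SP70 replicate 3 or 5 or SP300 replicate 4 or with the spread from the 10 arrays alone, and 2 with the mean of probe sets. Colec11, a collectin, gave -0.97 ± 0.24 and Hand2, a transcription factor, -1.02 ± 0.28, while Lrat, which makes retinyl esters, and Reln gave -0.32 ± 0.26 and 0.05 ± 0.11 and were not called. The call of Hand2 was lost without both mice (limma adjusted p = 0.061), and that of Colec11 with the mean of all its probe sets (limma adjusted p = 0.11).

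Kupffer cell markers fell far below control in both groups, and few differed between the groups. Of 27 tested macrophage markers 20 fell after SP70 and 21 after SP300, with medians of -1.73 and -1.65, and between the groups 1 was called higher and 1 lower (3 in all without SP70 replicate 1 or 3 or SP300 replicate 4 or 5, with the stricter filter or with arrays centred on their medians). The member called higher was Hmox1, induced in many cells, and the member called lower Mrc1, the mannose receptor that endothelium also carries (-1.35 ± 0.24). Clec4f, the lectin that marks Kupffer cells, read 3055 to 4136 in controls, 8.46 to 158 after SP70 and 13.6 to 127 after SP300. Its treated signals all lay under the floor.

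Timd4, Cd163, Cd5l and the complement chains C1qa, C1qb and C1qc also had group means below the floor in both treated groups, so no fold between them is given. In all, 11 of the 27 members had a mean below the floor after SP70 and 12 after SP300, against 1 in controls. Csf1r, the receptor of the macrophage growth factor, was still measurable. It read 1146, 1151, 1219.6, 1443 and 1642 after SP70, 1051, 1062, 1089, 1148 and 1278 after SP300 and 8610.2 to 11915 in controls (difference 0.22 ± 0.13, 95% interval -0.05 to 0.48). Adgre1, which encodes F4/80, gave -0.24 ± 0.17 and Lyz2, shared with neutrophils, 0.02 ± 0.17.

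**Figure D4:**
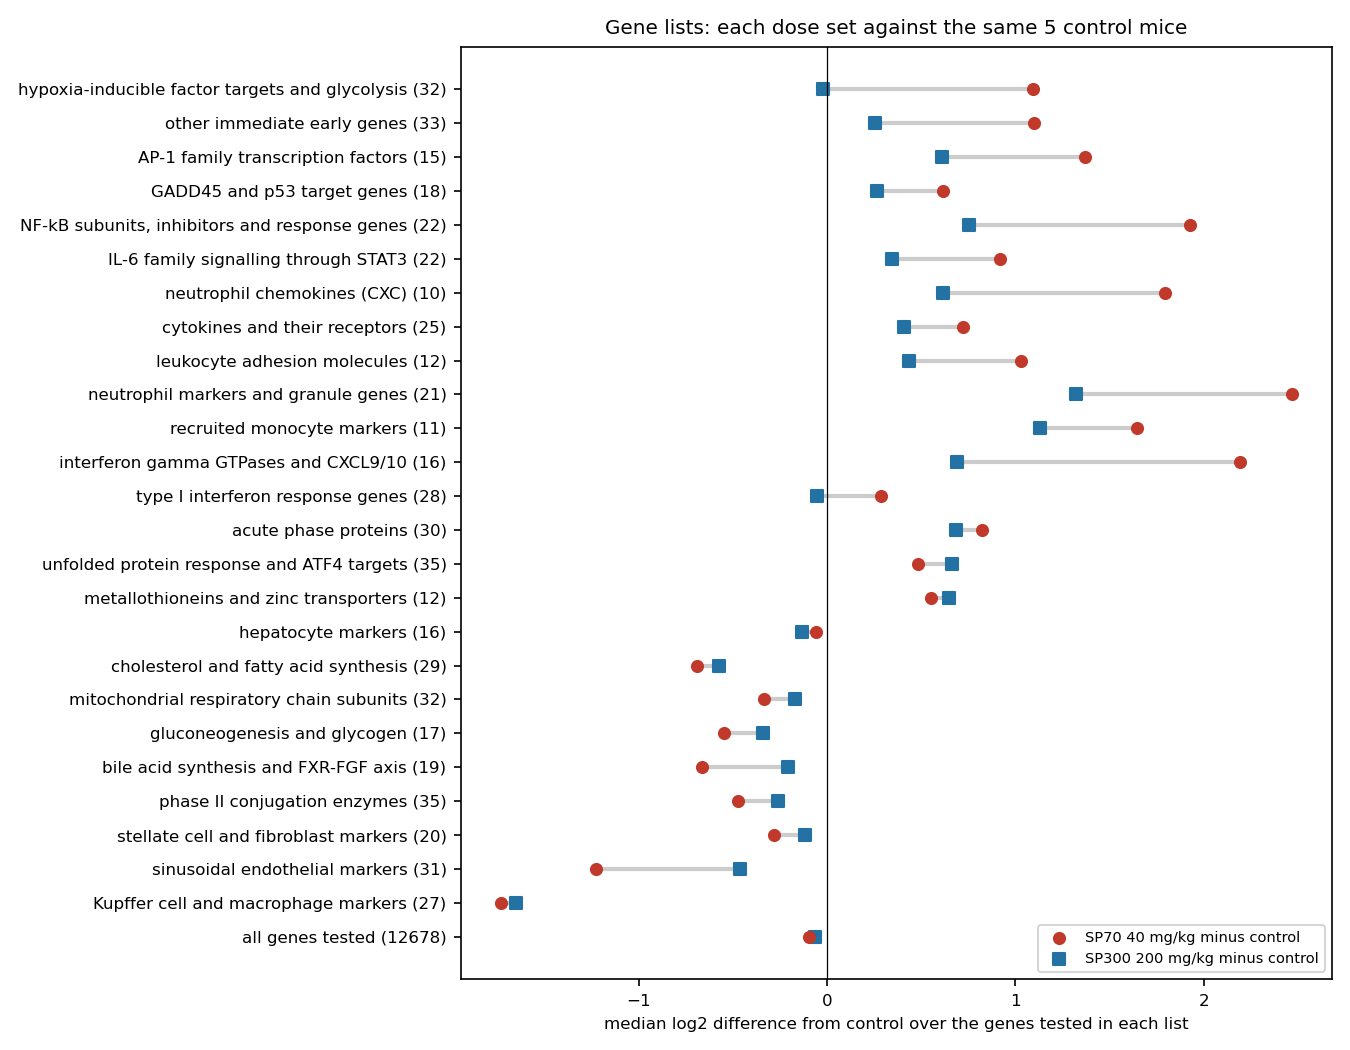
Median log2 difference from control over the tested genes of 25 gene lists and over all genes, for SP70 40 mg/kg (red circles) and SP300 200 mg/kg (blue squares), with the number of genes tested in brackets. Both doses are set against the same 5 control mice. The gap is wide for the hypoxia list (1.09 and -0.02) and the endothelial list (-1.23 and -0.46) and small for Kupffer cell markers (-1.73 and -1.65) and acute phase proteins (0.82 and 0.69).

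In the 6 lists of hepatocyte metabolism given below the called members were lower after SP70, in some lists at shares near that of all genes. Other lists had calls both ways. Of 23 glucocorticoid and fasting response genes 6 were called higher and 4 lower. Of 20 lipid droplet and lipolysis genes it was 1 and 4, and of 21 efflux and anion transporters 1 and 4. Without both mice that stood apart these counts were 6 and 2, 1 and 2, and 0 and 4. None of 16 hepatocyte markers was called by limma (3 had an unadjusted p under 0.05), and the summed signal of the list was 943395 to 1133850 after SP70 and 964261 to 1112190 after SP300. Of these markers 1 was called higher and 2 lower after quantile normalization, 1 higher without either mouse that stood apart, with the larger pseudocount or with the stricter filter, 2 higher without both mice, and 1 lower with the spread from the 10 arrays alone. Of 19 genes of bile acid synthesis and its control 8 were called lower and 0 higher, of 35 phase II enzymes 8 and 0, of 29 genes of the urea cycle and amino acid breakdown 6 and 0 and of 17 genes of gluconeogenesis and glycogen 4 and 0, beside 10.4% and 5.02% of all genes. The medians were -0.34, -0.22, -0.13 and -0.16. Of 34 cytochromes P450 3 were called lower and of 28 genes of fatty acid oxidation and ketogenesis 4, with 0 and 0 higher (medians -0.08 and -0.12). These counts of lower calls were near the 10.4% of all genes. Without both mice that stood apart the lower calls of the 6 lists, in this order, were 4, 3, 3, 2, 1 and 2, beside 773 of all 12678 genes, and 1 phase II enzyme was called higher. Single mice also moved these counts: phase II to 3 to 5 without SP70 replicate 2, 4 or 5 or SP300 replicate 1, 3 or 4, the urea cycle to 4 without SP70 replicate 3 or SP300 replicate 1, 4 or 5, gluconeogenesis to 2 without SP300 replicate 1, the cytochromes P450 to 1 without SP70 replicate 5, and fatty acid oxidation to 2 without SP70 replicate 5 or SP300 replicate 1, 3 or 4. After quantile normalization phase II had 5 lower calls and fatty acid oxidation 2, and with the spread from the 10 arrays alone the cytochromes P450 had 5.

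G6pc, the enzyme that releases free glucose from the liver, read 1995, 2539, 3065, 3311 and 3973 after SP70, 6369.7, 7368, 8251, 8401 and 10412 after SP300 and 10177 to 22305 in controls. SP70 mice were lowest, and only SP300 and control mice touched (difference -1.47 ± 0.25, limma adjusted p = 8.7e-05). Ppp1r3c, which brings phosphatase to glycogen, read 1944, 2479.9, 3121, 3265 and 4045 after SP70 and 7479.9, 9056, 9421, 9842 and 12566 after SP300. These ranges were apart, but both lay within the wide control range of 1610.3 to 15568 (difference -1.72 ± 0.40, limma adjusted p = 0.0029).

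Nr0b2, the repressor SHP that bile acids induce through FXR, differed by -1.61 ± 0.35. Akr1d1 and Cyp8b1, enzymes of bile acid synthesis, differed by -0.68 ± 0.15 and -0.78 ± 0.22, the latter call being lost without both mice that stood apart (limma adjusted p = 0.061). Cyp7a1, the rate-limiting enzyme, was not called and varied widely (-1.25 ± 0.61, 95% interval -2.48 to -0.01). Slc10a1, the bile acid importer, gave -0.26 ± 0.07, and Hal, which opens histidine breakdown, -0.79 ± 0.17. Igfbp1, a secreted binder of IGF made by stressed or fasting hepatocytes, went the other way. It read 63965, 70568, 71603, 74879 and 88664 after SP70, 10363, 15756, 20307, 20998 and 24784 after SP300 and 1175 to 13601 in controls, at least 4.16-fold higher after SP70 (difference 2.06 ± 0.42, limma adjusted p = 0.00079).

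Subunits of the mitochondrial respiratory chain were slightly lower after SP70. Of 32 tested 13 were called lower and 0 higher, with a median of -0.17, and the intervals of all 32 lay within -1 and 1. The count was 17 with arrays centred on their medians, 10 after quantile normalization and 6 without both mice that stood apart. Ndufb8, of complex I, read 14806, 15120.4, 15435, 15531 and 15781 after SP70 and 18223, 18291, 18586, 18671 and 19897 after SP300 (-0.29 ± 0.06), a call lost with the mean of all its probe sets (limma adjusted p = 0.092).

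Most genes that changed the same way after both particles had a direct difference bounded to less than 2-fold, as had most genes tested. Of 3146 genes called the same way against control in both groups, 2802 had an interval of the direct difference within -1 and 1. Over all 12678 genes it was 10087 (79.6%). Both calls use the same 5 control mice, so the count is a description and likeness is not taken as a result. The acute phase list had 3 of 30 members called higher after SP70 and 0 lower, beside 5.02% and 10.4% of all genes. Of its intervals 27 lay within -1 and 1. The count of higher calls was 1 or 2 without any 1 of SP70 replicates 1, 2, 4 and 5 and SP300 replicates 2, 3 and 4, and 5 with the spread from the 10 arrays alone. Saa3, an acute phase serum amyloid, read 79725, 82237, 88070.2, 89017 and 89289 after SP70 and 68768, 69971, 77783, 80834 and 81842 after SP300, beside 884 to 1578 in controls. The groups overlapped (difference 0.18 ± 0.12, 95% interval -0.07 to 0.43) at signals above 48037, where a fold is given only as a lower bound.

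Lcn2, which binds bacterial siderophores, gave 0.03 ± 0.22 and Saa2 0.16 ± 0.25, with the same limit. Below that range, the lectin Clec4d gave -0.14 ± 0.28 (95% interval -0.72 to 0.44), at 533 to 1391 after SP70, 818 to 1330.0 after SP300 and 9.91 to 32.2 in controls. Acod1, which makes itaconate in activated macrophages, gave 0.38 ± 0.23 (95% interval -0.09 to 0.85). With Gbp2, Cxcl9, Ccl3, Ikbke and Cd5l these were the 10 genes with the largest mean change among those alike by this rule. The rule chose them for an interval within -1 and 1, so their narrow intervals are not separate evidence of likeness. Cd5l had means below the floor in both treated groups, so its likeness there is uncertain. Gbp2 was called under quantile normalization and without SP300 replicate 5.

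Of 35 genes of the unfolded protein response 1 was called higher and 4 lower, beside 5.02% and 10.4% of all genes. The lower calls were 2 without SP70 replicate 1 or 3 or SP300 replicate 2, 4 or 5. The higher calls were 2 without SP70 replicate 2 or SP300 replicate 5. After quantile normalization or with the mean of probe sets 2 were higher and 2 lower. Against control 25 rose after SP70 and 22 after SP300. Dnajb9, a chaperone of the endoplasmic reticulum, read 29353, 32019.9, 33059, 33167 and 33807 after SP70 and 29521, 31645, 32279, 33067 and 33338 after SP300, beside 8994 to 10531 in controls (0.01 ± 0.10, 95% interval -0.19 to 0.22). The member called higher was Ppp1r15a (GADD34), which restarts translation, at 1.56 ± 0.21. Of 12 metallothioneins and zinc transporters 2 were called higher and 0 lower, beside 5.02% and 10.4% of all genes. The calls were 1 to 3 in all without 1 mouse, SP70 replicate 1, 3 or 5 or SP300 replicate 2, 3 or 5. Mt2 gave 0.10 ± 0.28 at signals among the brightest. None of 29 genes of cholesterol and fatty acid synthesis, 19 cell cycle genes or 11 lymphocyte markers was called by limma, with 1, 1 and 2 at an unadjusted p under 0.05. With arrays centred on their medians 1 member was called of each of the first 2 lists, and with the spread from the 10 arrays alone 1 of the first and 1 of the last. A single member was called without 1 mouse: of the first list SP300 replicate 2, of the next SP70 replicate 1 or SP300 replicate 5, and of the last SP300 replicate 2, 4 or 5.

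A few genes lay on opposite sides of control. By calls, 17 genes did so, of which 14 rose after SP70 and fell after SP300 and 3 did the reverse, and all 17 were called in the direct comparison. Beside Ankrd37, Pfkfb3, Vegfa, Cited2, Dusp6, Plk3 and Gadd45g, they included Tiparp, an ADP-ribosyltransferase induced through the aryl hydrocarbon receptor. It read 1949, 2344, 2423, 2602 and 2951 after SP70, 908 to 1017 in controls and 508, 641, 658, 754 and 786 after SP300, in 3 ranges that did not meet (difference 1.86 ± 0.15, limma adjusted p = 2.1e-10). Rnd3 gave 0.90 against control after SP70 and -0.72 after SP300.

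Armcx4, an armadillo repeat gene, went in the reverse direction. It read 90.7, 269, 324, 333 and 375 after SP70, 601, 1181, 1391, 1398 and 1462 after SP300 and 246 to 761 in controls (difference -2.13 ± 0.30, limma adjusted p = 4.7e-06). SP70 and SP300 mice did not overlap, while control mice overlapped with both. Among the 15 genes with the largest differences to either side, those not yet given were, higher after SP70, Rnd1 (3.71 ± 0.40), the G protein regulator Rgs16 (3.12 ± 0.52), Mab21l3 (2.91 ± 0.52) and the transcription factor Atoh8 (2.73 ± 0.53). Lower after SP70 were Gdf10, a BMP family ligand (-1.66 ± 0.20), Gucy1a1, a subunit of the nitric oxide receptor (-1.71 ± 0.33), Tmem204 (-1.51 ± 0.18), Snai2 (-1.48 ± 0.33), Ccdc151 (-1.80 ± 0.42), Klhl4 (-1.76 ± 0.37), Tepsin (-1.69 ± 0.45), Septin8 (-1.56 ± 0.36), 9930012K11Rik (-1.71 ± 0.47) and Bicdl1 (-1.55 ± 0.44). Ccdc151, Klhl4, Tepsin, Septin8, 9930012K11Rik, Bicdl1 and Gucy1a1 were below the floor in all SP70 mice, so their differences are uncertain in size. With the larger pseudocount Klhl4 gave -1.17 and 9930012K11Rik -1.11, and with the mean of its probe sets Gucy1a1 gave -0.87. Bicdl1 lost its call without SP70 replicate 3, without SP70 replicate 5 and without both mice that stood apart (limma adjusted p = 0.051, 0.07 and 0.09), and 9930012K11Rik when the spread came from the 10 arrays alone (limma adjusted p = 0.053).

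Across the 7 groups, Adm averaged 2764 ± 1504 (SD, n = 5) at 40 mg/kg of SP70 and 3105 ± 2036 at 10 mg/kg of SP30, the third toxic dose, and stayed at or below 271 ± 65.5 in the other 5 groups. SP30 mice overlapped with SP70 mice in Adm, and neither range met that of the other groups. Pfkfb3 averaged 7601 ± 3181 after SP30, 5418 ± 1660.5 at 40 mg/kg of SP70 and 2571 ± 1080.5 after SP70 at 10 mg/kg, with neighbours in that order overlapping. It was lowest after SP300 at 200 mg/kg, at 369.8 ± 129.7. Kdr averaged 367 ± 119 after SP30 and 383 ± 138 at 40 mg/kg of SP70, the lowest pair, and its SP300 mean of 934 ± 171 was next to that of SP70 at 20 mg/kg, 1053 ± 69.1. These levels describe the groups and were not tested here.

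**Figure D5:**
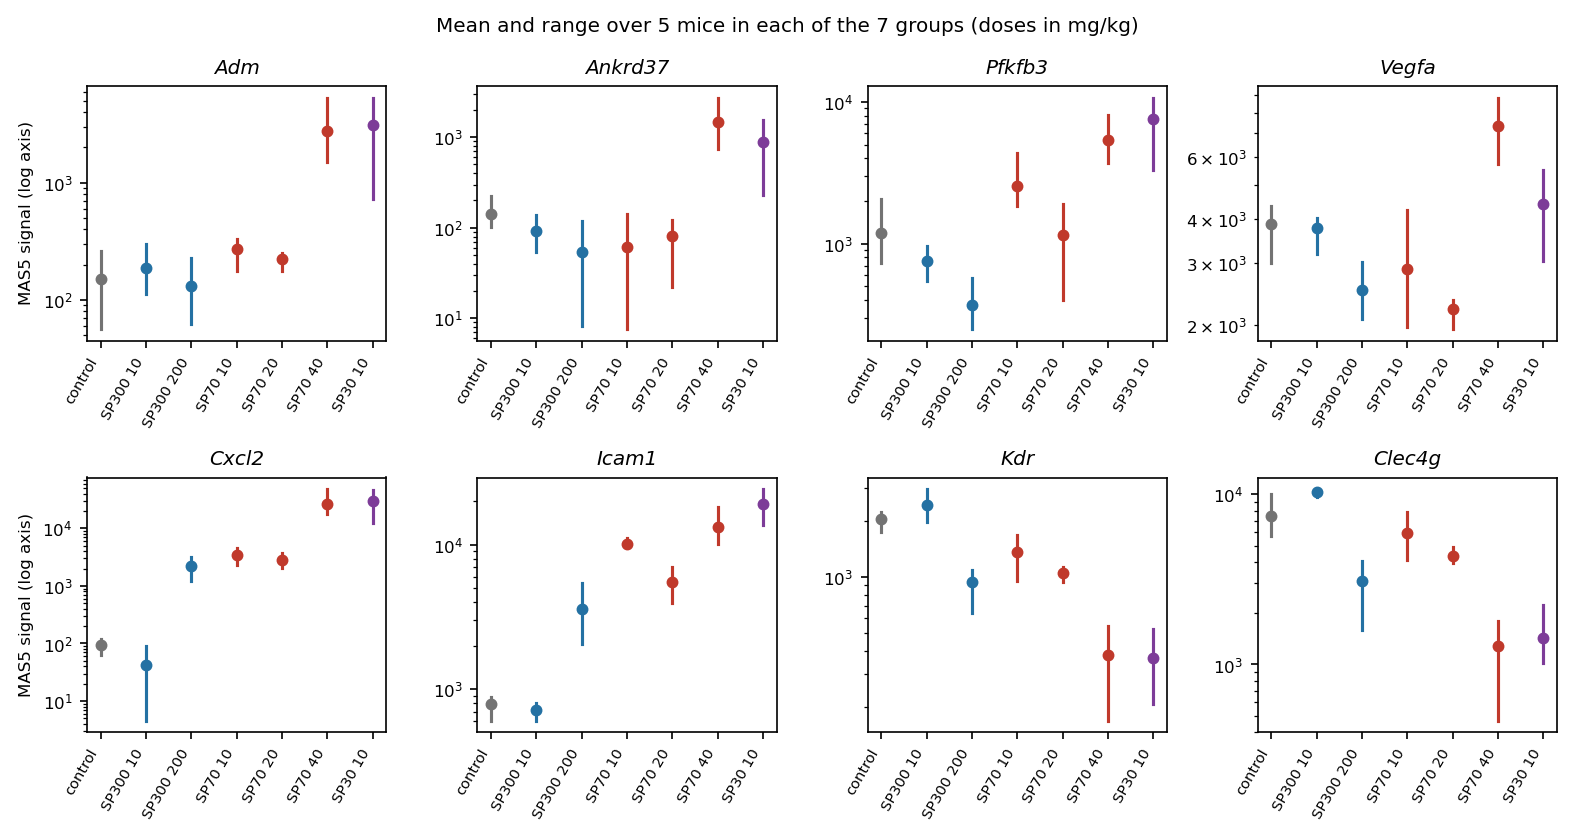
Mean MAS5 signal (points, log axis) and range over 5 mice (lines) of 8 genes in the 7 groups, with doses in mg/kg. Grey is control, blue SP300, red SP70 and purple SP30. For Adm the range after SP70 40 (1518 to 5299.9) overlaps that after SP30 10 (725 to 5330.2) and lies above that after SP300 200 (63 to 226).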

How the data were processed

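The authors deposited MAS5 intensity values on a linear scale for 45101 probe sets of 35 arrays, 1 array a mouse. MAS5 is named in the submitters' processing notes; its version and scaling target are not given in the sources used here. Total RNA was labelled with the 3 prime IVT Express kit, per the labels' protocols. Probe sets were kept where 5 or more arrays passed 165, the overall median, and each gene took its probe set with the highest mean, among 22660 kept probe sets with 1 gene in the platform annotation. Log2(signal + 12.5, the 10th percentile) was fitted in limma 3.58.1 (R 4.3.3) with 1 mean a group over all 35 arrays (lmFit, then eBayes with trend), and p-values were adjusted over 12678 genes. A fold or ratio is computed from signals raised to 165. The code was tested on simulated data. The number of arrays limits the precision: the median SE was 0.152, and the smallest called difference was 0.154.

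Replicates were separate mice, per the labels. Deviations of mice of the same number had a mean correlation of 0.0578 over 5 pairs (0.0128 to 0.111), 1 of them above 0.1. Over 20 pairs of other numbers the mean was -0.0144 (-0.0996 to 0.138), with 1 above 0.1. Any shared deviation was weak, and the numbers were not used as pairs. Genes were named by a rule: the 15 highest and 15 lowest differences without overlap, up to 4 members of each list by p, the 10 largest alike, the 10 largest on opposite sides of control, and other list members by role. The genes, the lists and the comparison were chosen with earlier results of these data known. Lists share genes, so a call can be counted in more than 1 list: the 1418 entries name 1253 genes. Of the list genes, 1086 of 1253 were tested. Alternatives tried were the pseudocount, the filter, quantile normalization, centring, the mean of probe sets, the 2 groups alone, no variance trend, the replicate block and leaving out mice. Leaving out both mice that stood apart was chosen after seeing the data.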

Additional observations from a re-analysis of the deposited data

Results flagged for a closer look

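Among 344 tests (172 named genes in the 5 mice of each group), a single mouse lay far from the other 4 in 31 (9.01%), where chance alone gives about 5%. The gap to the nearest mouse then took up most of the group's whole range, past Dixon's 95% limit, and the nearest signal is given beside the mouse's own. Of these, 9 were SP70 replicate 3 and 12 were SP300 replicate 1.

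SP70 replicate 3 was low for Armcx4 (90.7, next 269), Ccl9 (24402, next 30513), Itgam (138, next 255), Fcgr2b (603, next 1229), Ptprb (619.8, next 896), Lyve1 (814, next 3413), Procr (852, next 1641), Pecam1 (25.3, next 204) and Inhbb (596, next 2049). SP300 replicate 1 was low for Ldha (39907, next 49215), Rhob (1470.2, next 1997), Armcx4 (601, next 1181), Vcan (117, next 225), Kdr (644, next 952), Fcgr2b (1669, next 3414), Lyve1 (749, next 3724), Inhbb (104, next 357) and Klf2 (209, next 365). The same mouse was high for Ccdc151 (329, next 189.6), Alb (73107, next 63419) and Ndufb8 (19897, next 18671). The endothelial genes Fcgr2b and Lyve1 were low in both of these mice, and so were Armcx4 and Inhbb.

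SP70 replicate 4 was high for Slc2a3 (991, next 586), 9930012K11Rik (30.5, next 21.3) and Nfkbia (44762, next 33986). SP70 replicate 2 was low for Gucy1a1 (6.08, next 75.5). SP70 replicate 5 was low for Socs2 (2228, next 3846). SP70 replicate 1 was high for Cxcr2 (857, next 573). SP300 replicate 3 was low for Btg2 (1809, next 2491) and Nfkbia (15630.1, next 21487). SP300 replicate 3 was high for Csf3 (118, next 38.1). SP300 replicate 2 was low for Cd5l (56.8, next 135).

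Signals also came from probe sets left out of the comparison because they name several genes or none. Of 616 tested probe sets with several genes, 53 were called between SP70 and SP300 (8.60%), 18 higher and 35 lower. Of 3588 with no gene named here, 171 were called (4.77%), 97 higher and 74 lower, with differences from -2.96 to 4.02.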

How the results depend on the processing

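Between SP70 and SP300 the count of called genes was 1954 and ran from 1603 (spread from the 10 arrays alone) to 2571 (arrays centred on their medians) over 10 changes of processing, and from 1460 to 1984 without 1 mouse. Leaving out SP70 replicate 3 and SP300 replicate 1 together, chosen after seeing the data, gave 1282, of which 1193 were among the 1954; the smaller groups also have less power. The share called higher was 32.5%, 39.4% after quantile normalization and 24.2% with centring. With the replicate block 1930 genes were called (634 higher and 1296 lower); the labels share only a number, and 2 of 5 mice correlated best with their own number. The counts against control stayed within 1.5 times of 5614 and 3879 under all alternatives run. Of the 172 genes named, 127 were called between the groups; 117 of these were called under every alternative and 10 lost the call under at least 1. Pgk1 turned from -0.04 to 0.29 with the mean of its probe sets. Signals near 165 and above 48037 limit the sizes of changes there.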

Other observations

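Genes of vessel control and of the matrix around vessels also differed. Of 16 tested genes of vascular tone and flow response 7 were called higher after SP70 and 1 lower (4 and 1 without SP70 replicate 3 and SP300 replicate 1; 2 lower without SP70 replicate 2 or SP300 replicate 3). Klf2, a factor that flowing blood keeps on in endothelium, differed by 0.70 ± 0.18 (SE), with 0.27 against control after SP70 and -0.43 after SP300. The member called lower was the angiotensin receptor Agtr1a (-0.77 ± 0.13). Of 21 tested matrix proteases and inhibitors 9 were called higher and 3 lower (1 lower without SP70 replicate 3 or SP300 replicate 4, with the mean of probe sets or with the spread from the 10 arrays alone). Adamts4 read 1047, 1708, 2162, 2622 and 3573 after SP70, 204, 353, 366, 391 and 850.4 after SP300 and 25.7 to 142 in controls, and the 3 ranges did not meet (difference 2.36 ± 0.38, limma adjusted p = 5.1e-05). Adamts1, a related protease that also binds VEGF, differed by 1.08 ± 0.16.

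Of 23 tested genes of iron handling and BMP signalling 4 were called higher and 4 lower, beside 5.02% and 10.4% of all genes. The counts were 2 higher without SP70 replicate 4 or 5 or SP300 replicate 2, and 2 lower with the mean of probe sets. Hjv, the BMP co-receptor hemojuvelin, read 1041, 1219, 1245, 1624 and 1750.4 after SP70, 2661, 2971, 3035, 3043 and 3757 after SP300 and 4728 to 6591 in controls, again in 3 ranges with SP70 lowest (difference -1.18 ± 0.15, limma adjusted p = 7.9e-07). Id3, a gene that BMP signals induce, was higher after SP70 (1.24 ± 0.24), while the ligand Bmp2 was lower. Inhbb, which makes activin B, read 596, 2049, 2052, 2317 and 2504 after SP70 and 104, 357, 402, 526 and 542 after SP300 (difference 2.30 ± 0.34, limma adjusted p = 1.7e-05), without overlap. With the mean of its 2 probe sets, of which the other gave 0.15, the difference was 1.22. Of 30 hepatocyte transcription factors and nuclear receptors 7 were called higher and 4 lower (4 and 4 without SP70 replicate 3 and SP300 replicate 1). Cebpa differed by 0.64 ± 0.13, with -0.08 against control after SP70 and -0.72 after SP300, and Nr2f2, a receptor that endothelium also makes, by -0.79 ± 0.16.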
